A study of Mus musculus with 12 samples.

Results

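The transcriptional programme present after 24 h of IL-4 in macrophages without LPS was described from poly-A RNA-seq of mouse BMDMs, macrophages that were differentiated in culture from bone marrow. The comparison took 6 of the 12 samples of the series, 3 control samples and 3 samples that received 20 ng/ml IL-4 for 24 h. All came from wild-type C57BL/6 mice aged 8 to 12 weeks, and the cells of every group had been differentiated in L929 supernatant, a source of the growth factor MCSF. IL-4 was thus the only agent that differed between the groups. The other 6 samples, 3 with 100 ng/ml LPS for 3 h and 3 with IL-4 and then LPS, entered the estimate of the spread and a comparison at the end. Of 23847 rows in each table, 10879 were tested, those that reached 1 FPKM in any of the 6 samples. FPKM is the number of fragments of a transcript scaled to its length and to the mapped fragments of the sample.

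IL-4 is a cytokine of type 2 immunity. It binds a receptor that holds the IL-4 receptor alpha chain, and kinases of the JAK family on that receptor phosphorylate STAT6, a transcription factor that then enters the nucleus and binds DNA. Macrophages exposed to IL-4 are called alternatively polarized and are known for arginase, chitinase-like proteins and lectins, whereas LPS, from the bacterial cell wall, is known to induce inflammatory cytokines.

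FPKM totals of the 6 samples ran from 460064 to 477621. Across the rows tested, Pearson's r of log2(FPKM + 1) between samples of a group was 0.9505 to 0.9731 in control and 0.9569 to 0.9713 in IL-4, against 0.8992 to 0.9274 between the groups, and in both groups replicates 2 and 3 were the closest pair. All 7 macrophage markers were expressed in every sample, and 6 of the 7 fell, among them Emr1, which encodes F4/80, from 973, 1003 and 1033 FPKM to 453, 464 and 444 FPKM. The markers of dendritic cells, mast cells and basophils, T and NK cells and fibroblasts stayed under 1 FPKM in all 6 samples. Among B cell and erythroid markers only Cd79b and Epor reached 1 FPKM in any of the 6 samples, and both fell. Cd79b was at 2.01, 2.31 and 3.22 FPKM in control and at 0.589, 1.08 and 0.816 FPKM in IL-4. Of 3 eosinophil markers tested 1 fell. Prg2, at 4.59, 10.8 and 8.3 FPKM in control and at 1.98, 5.08 and 3.23 FPKM in IL-4, did not pass. Of 7 neutrophil markers tested 3 fell, and their summed level was 375 to 969 FPKM in control and 235 to 448 FPKM in IL-4, lowest in replicate 1 of both groups. In bulk RNA, fewer cells of a type and less RNA per cell cannot be told apart.

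After IL-4, 1794 rows (16.5%) rose and 2358 rows (21.7%) fell at an adjusted p under 0.05 (limma, Benjamini-Hochberg over 10879 rows). Most differences were small, with a median size of 0.53 on the log2(FPKM + 1) scale among rows that rose and 0.54 among rows that fell. At least 2-fold, 309 rows (2.84%) rose and 392 (3.6%) fell. The rises reached further, with 34 rows up and 14 down at least 8-fold, and 16 up and 4 down at least 16-fold. All these counts include rows of microRNAs and small nucleolar RNAs, with Mir186 and Mirlet7d among the 4 largest falls. Of the rows that rose 153 had a control mean under 1 FPKM, and of the rows that fell 328 had an IL-4 mean under 1 FPKM. All 3 IL-4 samples lay above all 3 control samples in 22.4% of the rows tested and below them in 29.7%. Counts of called members in the gene lists below are to be read against the 16.5% of all rows that rose and the 21.7% that fell.

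The largest rises were in secreted and surface proteins known from alternative polarization. Retnla, which encodes the secreted protein RELM-alpha, was at 5.91, 19.5 and 8.74 FPKM in control and at 11617, 11878 and 13029 FPKM in IL-4. Its difference was 10.09 ± 0.35 (SE) on the log2(FPKM + 1) scale (adjusted p = 2.21e-08, limma). It took 0.00245% of all FPKM in control and 2.56% in IL-4, where only the ferritin chain Fth1 was more abundant.

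Arg1, the arginase that turns arginine into ornithine, was at 0.261, 0 and 0.0396 FPKM in control and at 49.6, 27.3 and 23.6 FPKM in IL-4, a difference of 4.90 ± 0.26. The chitinase-like protein genes Chi3l3 (Ym1) and Chi3l4 (Ym2) rose from 19.2, 41.4 and 28.9 FPKM to 713, 942 and 866 FPKM and from 1.46, 4.67 and 2.8 FPKM to 73, 99.1 and 95.2 FPKM. Of the 50-base words of Chi3l3 transcripts, 26.9% also occur in Chi3l4 or Gm6522, so part of either value may belong to the other. Mgl2, a galactose-binding C-type lectin, rose from 3.52, 4.95 and 4.76 FPKM to 128, 121 and 138 FPKM.

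This set also held 4 genes of the eosinophil-associated ribonucleases on chromosome 14. Ear11 rose from 0, 0.639 and 0.207 FPKM to 298, 286 and 308 FPKM, a difference of 7.89 ± 0.14 (adjusted p = 3.06e-10, limma). Ear2, Ear12 and Ear10 rose by 5.36, 5.15 and 4.53. The row of Ear12 (chr14:44102887-44103357, mm10) lies inside that of Ear2 (chr14:44102654-44103531), and Ear2 and Ear10 share 41.5% and 39.9% of their 50-base words with relatives, so of the 4 only the value of Ear11, which shares none, can be assigned to 1 gene. No tested eosinophil marker outside this family rose.

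Tmem26, a transmembrane protein gene, rose from 0.36, 0.642 and 0.64 FPKM to 86.1, 111 and 99.5 FPKM, and the ratio of the group means was 181. Il4i1, a secreted enzyme that oxidizes amino acids, rose from 0.33 ± 0.33 to 31.8 ± 8.93 FPKM (mean ± SD, n = 3, as in all values of this form). Ocstamp, known from the fusion of osteoclast precursors, rose from 0.427, 0.462 and 0.302 FPKM to 45.7, 39.1 and 38 FPKM. Of the other osteoclast markers Ctsk, Dcstamp and Acp5 rose by 1.46, 1.38 and 1.34, Mmp9 fell by 1.34, and Calcr and Oscar were at or below 0.0156 FPKM in all 6 samples. The osteoclast list was thus divided, with 4 of 5 tested members higher and 2 defining members near 0.

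**Figure D1:**
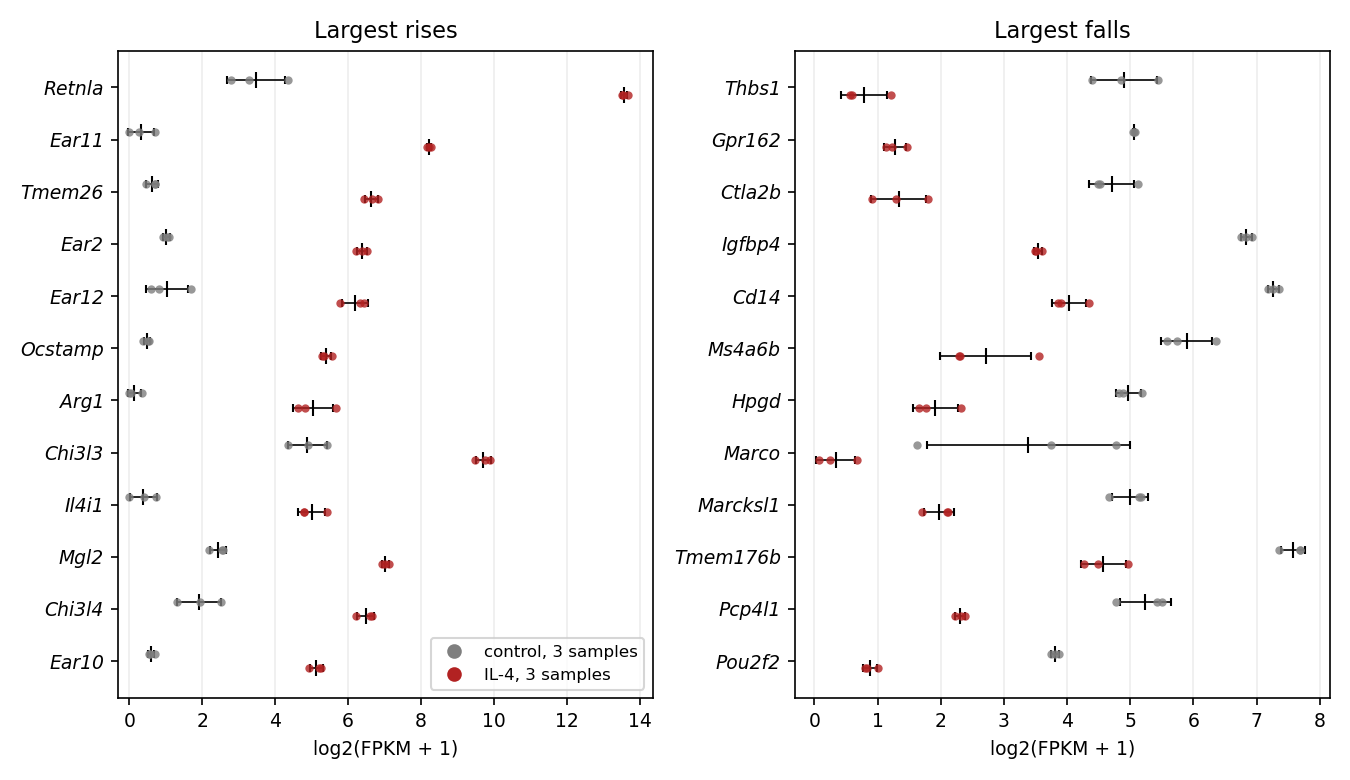
Levels as log2(FPKM + 1) of the 12 largest rises and the 12 largest falls, with 3 control samples and 3 IL-4 samples per gene, the mean (tick) and the SD (bar). Only genes whose groups do not overlap were chosen, and among the falls the control samples of Marco, at 2.1, 26.5 and 12.4 FPKM, spread the most.

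Of 32 known markers of alternative polarization 27 were tested, 24 rose and 1 fell, with a median difference of 2.86 against -0.05 over all rows tested. They were listed because they are known from this treatment, so their direction is no new evidence. Pdcd1lg2, which encodes the PD-1 ligand PD-L2, rose from 0.155, 0.252 and 0.157 FPKM to 23.1, 21.9 and 19.9 FPKM, and Fn1, which encodes fibronectin, from 0.182, 0.306 and 0.236 FPKM to 20.8, 19.3 and 18.4 FPKM. Mrc1, the mannose receptor, was already abundant and rose less, from 198, 167 and 179 FPKM to 284, 234 and 250 FPKM. Over the 6 fits that left out 1 sample, the adjusted p of Mrc1 was 0.0328 to 0.0852 by limma, and its call was lost without control replicate 2, control replicate 3, IL-4 replicate 1 or IL-4 replicate 3.

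The exception was Il1rn, the IL-1 receptor antagonist, which fell from 9.45, 11.4 and 12.4 FPKM to 4.87, 4.28 and 3.87 FPKM. Its call was lost in all 6 fits that left out 1 sample, with an adjusted p of 0.0609 to 0.103 by limma.

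The promoters of Retnla, Tmem26 and Pdcd1lg2 are shown because each holds the spaced palindrome for which STAT6 is known, TTC and GAA with any 4 bases between them, in capitals. They are RefSeq sequences on GRCm38.p6, the assembly also called mm10, from 250 bases before to 50 bases after the annotated start, read along the gene's strand.
Retnla promoter, chr16:48842359-48842658, plus strand: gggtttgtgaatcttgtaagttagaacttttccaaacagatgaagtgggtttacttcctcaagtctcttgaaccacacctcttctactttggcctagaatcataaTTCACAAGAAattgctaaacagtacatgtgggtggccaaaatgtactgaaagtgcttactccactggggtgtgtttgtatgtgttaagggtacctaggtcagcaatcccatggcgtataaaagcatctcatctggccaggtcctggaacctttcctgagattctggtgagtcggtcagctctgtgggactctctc
Tmem26 promoter, chr10:68723496-68723795, plus strand: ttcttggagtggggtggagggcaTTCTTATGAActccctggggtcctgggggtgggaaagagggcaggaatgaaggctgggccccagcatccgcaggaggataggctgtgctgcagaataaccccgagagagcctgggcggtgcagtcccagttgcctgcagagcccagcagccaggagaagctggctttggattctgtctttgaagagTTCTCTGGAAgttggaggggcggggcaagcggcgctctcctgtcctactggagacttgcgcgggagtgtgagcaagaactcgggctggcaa
Pdcd1lg2 promoter, chr19:29410669-29410968, plus strand: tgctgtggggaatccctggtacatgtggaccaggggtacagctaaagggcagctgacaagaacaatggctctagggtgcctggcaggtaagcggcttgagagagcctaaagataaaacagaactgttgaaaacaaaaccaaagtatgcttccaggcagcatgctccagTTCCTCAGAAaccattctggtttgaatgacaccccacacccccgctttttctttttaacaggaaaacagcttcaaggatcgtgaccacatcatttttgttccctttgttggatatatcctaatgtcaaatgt
The match begins at base 106 of the window in Retnla, at bases 24 and 210 in Tmem26 and at base 169 in Pdcd1lg2. The string has the same matches on both strands. It was in 8.01% of the 27025 genes with a promoter in the RefSeq table, in 6.7% of the 8595 of them that were tested, in 9.09% of 231 genes that rose at least 2-fold and in 6.89% of 305 that fell at least 2-fold. Of 20 alternative polarization markers with a promoter 6 held it, the others being Ccl17, Il1rn and Itgax. Promoters were matched by symbol, which succeeded for 79.2% of the rows tested, and a match is only a string of letters.

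Of 8 genes of the SOCS family, which restrains JAK-STAT signalling, 4 rose and none fell, and Socs3, Socs4, Socs5 and Socs7 did not pass. Socs1 rose from 1.23, 0.49 and 0.769 FPKM to 33.3, 30.6 and 30.7 FPKM (4.17 ± 0.29, adjusted p = 2.18e-06, limma), Cish from 0.637, 0.859 and 0.631 FPKM to 15.1, 25.2 and 21.8 FPKM and Socs2 from 0.0444, 0.133 and 0.0674 FPKM to 2.76, 2.65 and 2.87 FPKM. Socs6 rose by 0.67. The Cish promoter is shown for 2 copies of the related STAT palindrome TTCNNNGAA, with 3 bases between its arms, in capitals, at bases 251 and 262 of the window, of which base 251 is the annotated start.
Cish promoter, chr9:107296409-107296708, plus strand: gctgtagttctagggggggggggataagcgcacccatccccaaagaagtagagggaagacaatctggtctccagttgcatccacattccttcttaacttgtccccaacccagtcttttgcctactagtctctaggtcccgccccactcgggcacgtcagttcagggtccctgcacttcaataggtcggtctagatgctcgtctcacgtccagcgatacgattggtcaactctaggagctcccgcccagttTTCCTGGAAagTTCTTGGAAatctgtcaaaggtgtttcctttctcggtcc
This shorter string was in 8.13% of the tested genes with a promoter, in 6.06% of those that rose at least 2-fold and in Cish and Socs3 among 4 SOCS genes.

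Of 11 tested genes of the receptor and the JAK-STAT6 pathway 1 rose (9.09%) and 5 fell (45.5%), with a median of -0.34. The receptor chain Il4ra was at 24.8, 25.2 and 23.4 FPKM in control and at 15.7, 17.4 and 15.9 FPKM in IL-4. The groups did not overlap, but the difference of -0.55 ± 0.32 did not pass (adjusted p = 0.203, limma), in a fit whose spread is shared with the LPS groups. With only the 6 samples in the fit its adjusted p by limma was 0.00151. Stat6 was at 65.3, 76.1 and 77.2 FPKM in control and at 61.7, 67.7 and 66.3 FPKM in IL-4 and did not pass, and neither did Jak1. Jak2 rose from 9.6, 8.76 and 8.48 FPKM to 24.4, 20.8 and 20.9 FPKM. Il13ra1, an alternative partner chain of the receptor, fell from 4.11, 3.95 and 3.94 FPKM to 1.32, 1.08 and 1.18 FPKM, and the phosphatases Ptpn6 and Inpp5d, which also restrain signalling, and the kinase Jak3 fell by 0.85, 0.84 and 0.67.

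Of 14 transcription factors linked to IL-4 9 rose and 3 fell, with a median of 1.25. Bhlhe40 rose from 4.71, 5.18 and 5.51 FPKM to 64.4, 67.2 and 67.1 FPKM, Irf4 from 1.15, 1.5 and 1.42 FPKM to 19.2, 20.6 and 19.9 FPKM and Batf3 from 6.22, 8.56 and 8.37 FPKM to 54, 68.2 and 77 FPKM. Klf4, a zinc finger factor, rose by 2.50 ± 0.09. The nuclear receptor Pparg and its coactivator Ppargc1b rose from 42.5 ± 1.02 to 95.9 ± 6.28 FPKM and from 0.56 ± 0.06 to 3.12 ± 0.32 FPKM, and Egr2 and Myc rose by 1.86 and 1.35. In the other direction, the orphan nuclear receptor Nr4a1 fell from 4.21, 4.55 and 5.59 FPKM to 0.958, 0.679 and 0.756 FPKM, and the repressor Bcl6 fell by 0.37. Cebpb was at 59, 27.8 and 25.4 FPKM in control and at 61.7, 35.2 and 37 FPKM in IL-4, so replicate 1 was the highest in both groups and the groups overlapped.

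Of 14 lineage and AP-1 factors 4 rose (28.6%) and 3 fell (21.4%), against 16.5% and 21.7% of all rows tested. Maf, a macrophage factor, fell from 64.7, 63.6 and 62.8 FPKM to 11.9, 11.2 and 13.1 FPKM, Smad3, which carries TGF-beta signals, by 0.85 and Irf8 by 0.74. The AP-1 and ATF members Fosl2, Atf3, Jun and Jund rose by 1.30, 0.88, 0.83 and 0.68. With only the 6 samples in the fit, 7 members rose in place of 4. Sfpi1, which encodes the lineage-determining factor PU.1, was at 205, 261 and 251 FPKM in control and at 224, 268 and 262 FPKM in IL-4 and did not pass.

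All 22 tested genes of cholesterol synthesis and uptake rose, 21 of them at least 2-fold, with a median of 1.98, and no gene's groups overlapped. The pathway builds cholesterol from acetyl-CoA by way of mevalonate and squalene, and SREBP-2, encoded by Srebf2, controls its genes. Hmgcs1, which makes HMG-CoA early in the pathway, rose from 13.4, 13.8 and 15 FPKM to 62.6, 68.7 and 74.5 FPKM. Sqle, which oxidizes squalene, rose from 4.34, 7.58 and 7.18 FPKM to 40.5, 55.9 and 60.2 FPKM (2.86 ± 0.23, adjusted p = 5.64e-06, limma).

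Insig1, which restrains SREBP processing, and Srebf2 itself rose by 2.04 and 1.26. The smallest rise was that of the isomerase Ebp, from 23.6, 29.2 and 27.9 FPKM to 29.7, 41.8 and 40 FPKM, and its call was lost without control replicate 1, IL-4 replicate 2 or IL-4 replicate 3 (adjusted p 0.00313 to 0.0926 by limma over the 6 fits). Fdps, which rose by 2.89, has 26.2% of its 50-base words in common with other annotated loci. Replicate 1 was the lowest of the 3 controls in 22 of 22 genes and the lowest IL-4 sample in 21 of 22. The list's summed level was 145, 203 and 201 FPKM in control and 620, 749 and 811 FPKM in IL-4. With replicates 2 and 3 only, 22 genes rose.

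The Hmgcs1 promoter is shown for TCACNCCA, the letters of a sterol response element, in capitals from base 114 of the window.
Hmgcs1 promoter, chr13:119690101-119690400, plus strand: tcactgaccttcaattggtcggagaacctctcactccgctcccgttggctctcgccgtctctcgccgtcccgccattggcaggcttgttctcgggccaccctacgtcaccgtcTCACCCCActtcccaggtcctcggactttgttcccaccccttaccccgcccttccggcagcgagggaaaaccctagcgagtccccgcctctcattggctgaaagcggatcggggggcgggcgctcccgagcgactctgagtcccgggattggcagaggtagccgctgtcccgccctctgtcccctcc
On either strand the string was in 3 of 15 genes of the list with a promoter (Srebf2, Hmgcs1 and Sc4mol, listed as Msmo1 by RefSeq) and in 4.43% of the tested genes. It was in 4.33% of the genes that rose at least 2-fold and in 6.89% of those that fell at least 2-fold.

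**Figure D2:**
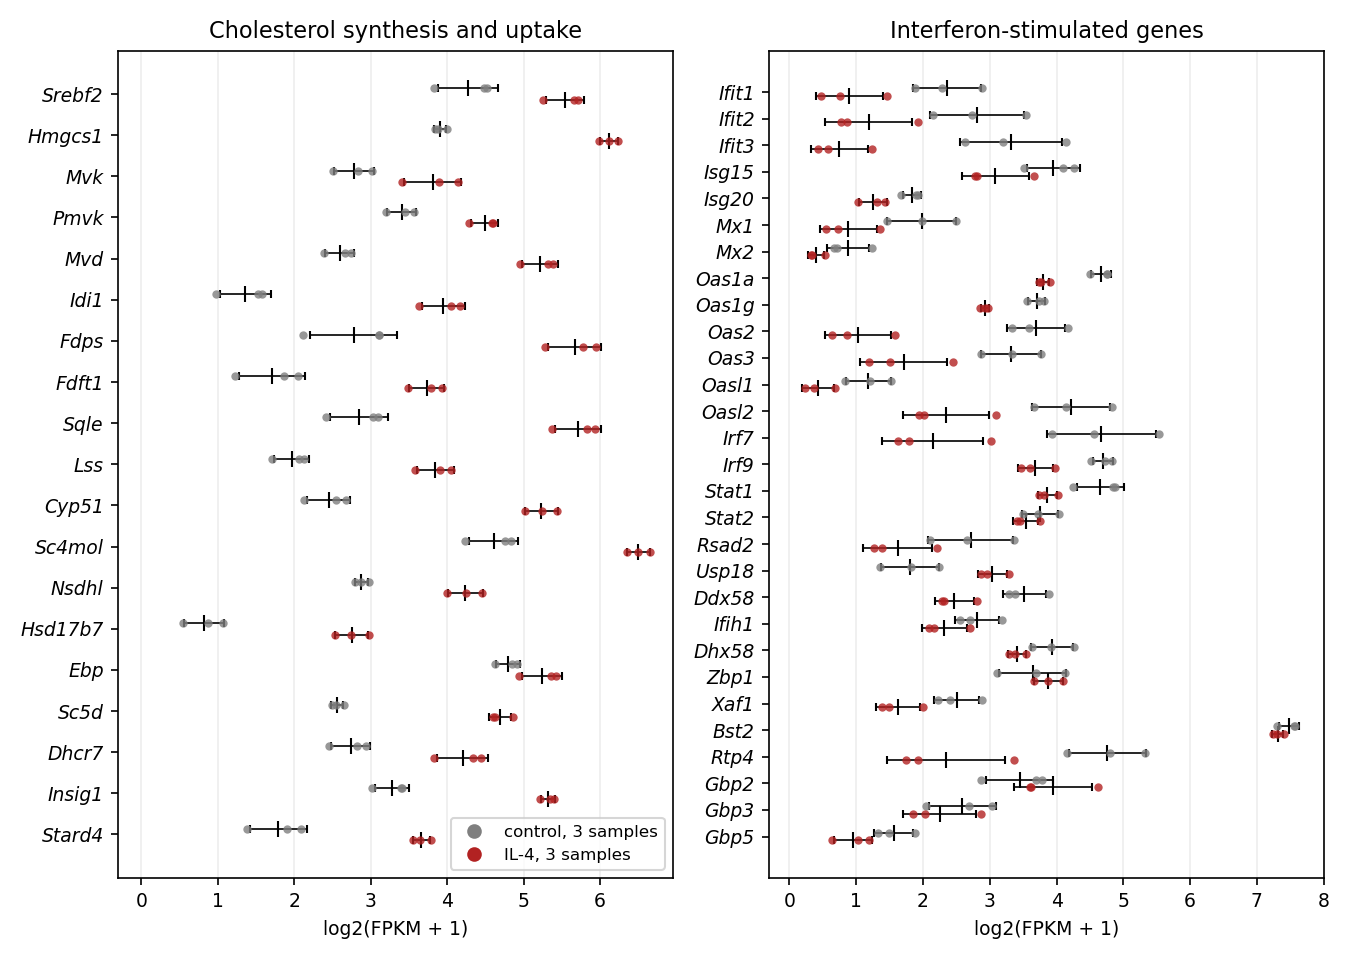
Levels as log2(FPKM + 1) of 19 of the 22 tested genes of cholesterol synthesis and uptake and of the 29 tested interferon-stimulated genes in 3 control and 3 IL-4 samples, with the mean (tick) and SD (bar). Every cholesterol gene shown lies higher in the 3 IL-4 samples than in the 3 control samples, and 22 of the 29 interferon-stimulated genes fell.

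The list of LXR targets and cholesterol efflux genes did not move as 1 group. Of 14 LXR targets and efflux genes 6 rose (42.9%) and 5 fell (35.7%), with a median of 0.01. Abca1, the transporter that loads cholesterol onto apolipoprotein, fell from 90.5, 58.5 and 60.3 FPKM to 31.1, 18.5 and 18.3 FPKM. Apoe, which carries lipid out of the cell, fell from 8023, 7751 and 7072 FPKM to 3284, 3097 and 2709 FPKM, and Mylip, a ubiquitin ligase induced by LXR, by 1.71. Apoc1 fell and was listed at 0 in all 3 IL-4 samples. The desaturases Scd2 and Scd1 rose by 3.38 and 1.71, and Srebf1 and Lpcat3 by 0.66 and 0.63. Nr1h3, which encodes LXR-alpha, was at 25, 36.6 and 31.6 FPKM in control and at 21.5, 38.4 and 34 FPKM in IL-4 and did not pass.

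Of 19 genes of fatty acid uptake and oxidation 8 rose, none fell and 11 did not pass, with a median of 0.28. Fabp4, a fatty acid carrier, rose from 128, 125 and 124 FPKM to 382, 557 and 492 FPKM, and Cd36, a receptor for fatty acids and oxidized lipid, from 1126, 943 and 1002 FPKM to 1906, 1430 and 1587 FPKM. The subunits of the mitochondrial trifunctional enzyme, Hadhb and Hadha, rose by 0.66 and 0.54. Of 18 glycolysis genes 9 rose (50%) and 4 fell (22.2%, near the 21.7% of all rows), with a median of 0.24. The rises were largest in Pfkp, Hk2 and Hk3, by 1.38, 1.07 and 0.83, whereas the other isoforms Pfkl and Hk1 fell by 0.45 and 0.33. The falls of this list numbered 2 without control replicate 2, control replicate 3 or IL-4 replicate 1.

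Of 12 genes of arginine and polyamine metabolism 6 rose and none fell, with a median of 0.32. Besides Arg1, the arginine transporters Slc7a2 and Slc7a1 rose from 0.2, 0.79 and 0.411 FPKM to 15.4, 24.4 and 21.3 FPKM and from 1.69, 2.65 and 2.6 FPKM to 5.78, 5.41 and 5.22 FPKM, and Srm, which makes spermidine, rose by 1.10. Nos2, which makes nitric oxide from arginine, was at or below 0.296 FPKM in all 6 samples.

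Of 9 genes of MHC class II presentation 7 rose and none fell, with a median of 0.82. Ciita, the coactivator that switches the class on, rose from 5.52, 8.12 and 6.54 FPKM to 13.2, 15.2 and 13.9 FPKM, and the invariant chain Cd74 from 1854, 2658 and 2297 FPKM to 3450, 4280 and 4210 FPKM. H2-DMa and H2-DMb1, which load peptides, rose by 1.34 and 1.33. H2-DMb2 rose by 1.33 and shares 24.8% of its 50-base words, mostly with H2-DMb1.

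Matrix and lysosome genes went both ways. Of 19 genes of matrix, proteases and repair 7 rose (36.8%) and 5 fell (26.3%), against 16.5% and 21.7% of all rows tested. The metalloproteases Mmp13 and Mmp12 rose by 1.70 and 1.45 and the urokinase receptor Plaur by 1.40, whereas Mmp14, Vegfa and F13a1 fell by 1.59, 1.53 and 1.52. Of 20 lysosome and proton pump genes 8 rose (40%) and 5 fell (25%, near the 21.7% of all rows), and 3 fell without control replicate 2 or IL-4 replicate 3. The pump subunit Atp6v0d2 rose from 227, 120 and 141 FPKM to 629, 450 and 493 FPKM, and the proteases Ctsk, Ctsz and Ctss rose by 1.46, 0.85 and 0.68. The lysozyme Lyz2, the most abundant macrophage marker, fell from 15344, 16507 and 16495 FPKM to 5051, 4834 and 4734 FPKM, and from 3.48% to 1.02% of all FPKM. It shares 15.4% of its 50-base words with Lyz1, which fell by 1.60.

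**Figure D3:**
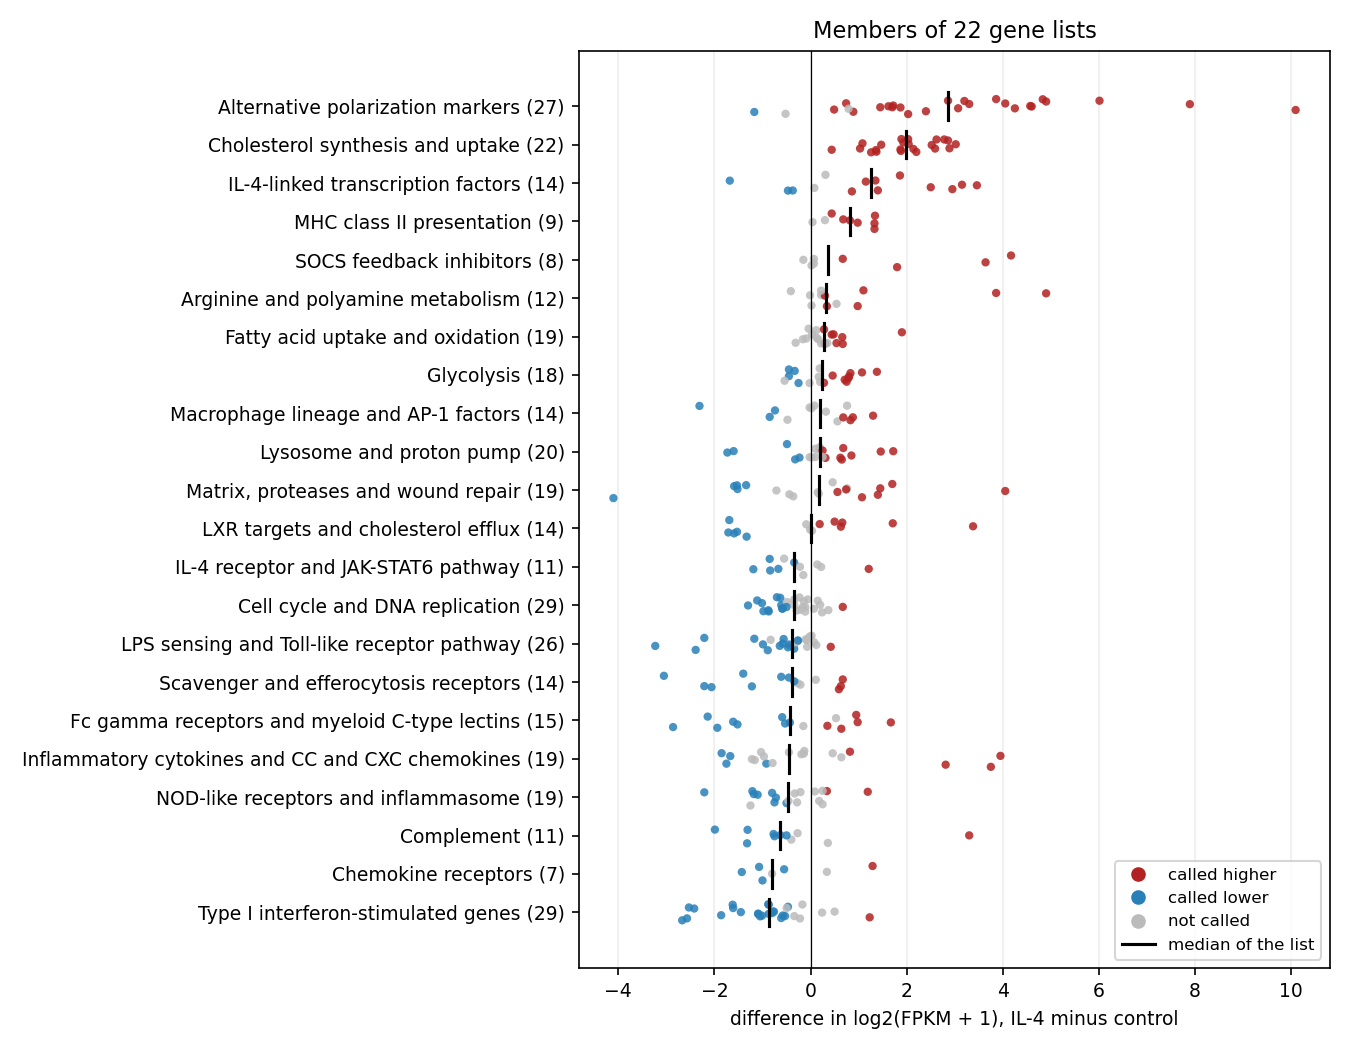
Difference in log2(FPKM + 1), IL-4 minus control, for the tested members of 22 gene lists, with members that rose in red, members that fell in blue, members that did not pass in grey and each list's median as a black line. The list medians run from 2.86 for alternative polarization markers to -0.87 for interferon-stimulated genes.

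Among the genes that fell, Thbs1, which encodes the matrix protein thrombospondin 1, had the largest difference, from 42.5, 20.1 and 27.9 FPKM to 1.32, 0.51 and 0.486 FPKM (-4.10 ± 0.29, adjusted p = 2.85e-06, limma). Gpr162, an orphan receptor, fell from 32.4, 32.8 and 31.9 FPKM to 1.76, 1.19 and 1.35 FPKM, and Igfbp4, which binds insulin-like growth factors, from 107, 121 and 113 FPKM to 10.2, 11.2 and 10.4 FPKM. Cd14, which hands LPS to TLR4, was at 144, 153 and 163 FPKM in control and at 19.3, 13.5 and 14 FPKM in IL-4, a difference of -3.23 ± 0.17. In each of these genes the lowest control lay above the highest IL-4 sample, which the rule that chose them required.

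Hpgd, which breaks down prostaglandins, fell from 35.5, 28.7 and 27.4 FPKM to 3.98, 2.41 and 2.17 FPKM, and the transcription factor Pou2f2 from 13.7, 13 and 12.4 FPKM to 1.02, 0.753 and 0.784 FPKM. The scavenger receptor Marco was at 2.1, 26.5 and 12.4 FPKM in control and at 0.188, 0.604 and 0.0536 FPKM in IL-4, with the lowest control in replicate 1. Its difference of -3.05 ± 0.85 lost the call without control replicate 2, control replicate 3 or IL-4 replicate 3, and over the 6 fits its adjusted p by limma was 0.0041 to 0.0642. The rest of the 12 largest falls were Ctla2b, Ms4a6b, Marcksl1, Tmem176b and Pcp4l1, with differences of -3.37, -3.18, -3.02, -3.00 and -2.92. For Ctla2b 69% of the 50-base words also occur elsewhere, Ctla2a included, so its value may be split.

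Rows of microRNAs and small nucleolar RNAs were kept apart from these sets, since poly-A libraries measure them poorly. Of 167 tested, 4 rose and 4 fell. The largest were Snora62 and Snord22 among the rises, and Mir186 and Mirlet7d, both listed at 0 in all 3 IL-4 samples, among the falls. Snora62 was at 0, 0 and 4.24 FPKM in control and at 16.1, 15.7 and 8.02 FPKM in IL-4. The call of Snord22 was lost in 5 of the 6 fits that left out 1 sample, all but that without control replicate 3 (adjusted p 0.0219 to 0.135 by limma).

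Of 26 tested genes of LPS sensing and the Toll-like receptor pathway 1 rose, 14 fell and 11 did not pass, Tlr1, Tlr3, Tlr8 and Tlr13 among the last, with a median of -0.38. Tlr13 was at 146, 121 and 124 FPKM in control and at 84.9, 66.4 and 67.9 FPKM in IL-4. Its groups did not overlap, but the difference of -0.83 ± 0.39 did not pass (adjusted p = 0.127, limma), in a fit whose spread is shared with the LPS groups. Besides Cd14, Tlr2, the receptor of bacterial lipoproteins, fell from 24.6, 32 and 32.7 FPKM to 4.04, 5.05 and 5.48 FPKM, and Tlr9, the receptor of CpG DNA, from 16.3, 16.5 and 13.4 FPKM to 3.05, 2.45 and 2.18 FPKM. Tlr4, the LPS receptor itself, was at 25.2, 21.6 and 22.1 FPKM in control and at 33.3, 20.4 and 23.2 FPKM in IL-4, so the groups overlapped and the gene did not pass. Further down, Irak3, an inhibitor of the pathway, fell from 12.5, 10.1 and 12.1 FPKM to 5.02, 4.13 and 4.56 FPKM, the adaptor Myd88 fell by 0.47 and the other adaptor Ticam1 rose by 0.42.

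Of 19 genes of NOD-like receptors and the inflammasome 2 rose (10.5%) and 8 fell (42.1%), with a median of -0.46. Nlrp3, the sensor that assembles the inflammasome, fell from 13.2, 10.9 and 11.4 FPKM to 2.3, 1.54 and 1.53 FPKM (-2.21 ± 0.12, adjusted p = 5.69e-07, limma). Il18, a cytokine matured there, fell from 9.04, 8.92 and 7.22 FPKM to 3.29, 3.39 and 3.38 FPKM, and Mefv, which encodes pyrin, by 1.21. Il1b was at 6.44, 5.04 and 4.44 FPKM in control and at 2.91, 2.08 and 0.51 FPKM in IL-4. Its groups did not overlap, but the difference of -1.25 ± 0.58 did not pass (adjusted p = 0.119, limma). It passed with only the 6 samples in the fit (adjusted p = 0.0318, limma). Casp1, the protease of the inflammasome, did not pass, and the kinase Ripk2, which acts after the NOD receptors, rose by 1.19. With replicates 2 and 3 only, 13 members fell in place of 8, and without control replicate 1 or any 1 IL-4 replicate Ripk2 was the 1 member that rose.

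Of 19 tested inflammatory cytokines and chemokines 4 rose and 4 fell (each 21.1%, the latter near the share of all rows), with a median of -0.45. These counts come from a fit whose spread is shared with the LPS groups. Ccl3, at 48.9, 51.9 and 49.2 FPKM in control and at 34.1, 15.5 and 16.9 FPKM in IL-4, did not overlap but did not pass (adjusted p = 0.0503, limma). The CC chemokines Ccl8, Ccl7 and Ccl2, which attract monocytes, rose from 0, 1.01 and 0.327 FPKM to 27, 17.3 and 18.3 FPKM, from 1.12, 1.25 and 1.56 FPKM to 27, 33.4 and 29.6 FPKM and from 4.56, 5.57 and 4.06 FPKM to 39.1, 37.9 and 40.1 FPKM. Pf4, Cxcl16 and Cxcl2 fell by 1.85, 1.75 and 1.67, and Tnf fell from 11.8, 19 and 16.5 FPKM to 7.28, 8.6 and 7.36 FPKM. Il10, an anti-inflammatory cytokine, was at 5.2, 7.9 and 7.5 FPKM in control and at 2.13, 3.35 and 3.64 FPKM in IL-4. Its difference of -0.97 ± 0.74 had an adjusted p of 0.338 by limma, and of 0.0111 with only the 6 samples in the fit. The falls of this list numbered 11 with replicates 2 and 3 only and 7 without IL-4 replicate 1. Of 7 chemokine receptors Ccr1 rose by 1.29 (14.3% of the list) and 4 fell (57.1%), of which Cxcr3 fell by 1.43 and Cxcr4 by 1.07.

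Of 29 tested genes that type I interferon is known to induce 1 rose and 22 fell, 12 of them at least 2-fold, with a median of -0.87. Oas2, which makes the messenger that activates RNase L, fell from 17.1, 11 and 9.05 FPKM to 1.99, 0.818 and 0.561 FPKM (-2.67 ± 0.26, adjusted p = 2.64e-05, limma). Irf7, the factor that amplifies the interferon response, fell from 45.4, 22.5 and 14.2 FPKM to 7.08, 2.47 and 2.08 FPKM, and Ifit3, which restrains viral RNA, from 16.6, 8.19 and 5.17 FPKM to 1.35, 0.495 and 0.346 FPKM. Rtp4 fell by 2.42. The 1 gene that rose was Usp18, which removes ISG15 from proteins and restrains interferon signalling, from 3.71, 2.54 and 1.56 FPKM to 8.76, 6.8 and 6.3 FPKM.

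Replicate 1 held the highest levels of this list in both groups. It was the highest control in 25 of 29 genes and the highest IL-4 sample in 29 of 29, and the summed level was 601, 494 and 377 FPKM in control and 369, 285 and 273 FPKM in IL-4. The summed levels narrowly did not overlap, with 377 FPKM the lowest control sum and 369 FPKM the highest IL-4 sum. Bst2, the most abundant member, did not pass, at 190, 188 and 157 FPKM in control and at 168, 156 and 150 FPKM in IL-4. With replicates 2 and 3 only 23 genes fell, and when 1 sample was left out 16 to 24 did, with 16 without IL-4 replicate 3. Ifit3 shares 51.2% of its 50-base words with its relative Ifit3b.

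The promoters of Isg15 and Ifit3 are shown for the letters of an interferon response element, GAAA repeated after any 2 bases, in capitals.
Isg15 promoter, chr4:156200769-156201068, minus strand: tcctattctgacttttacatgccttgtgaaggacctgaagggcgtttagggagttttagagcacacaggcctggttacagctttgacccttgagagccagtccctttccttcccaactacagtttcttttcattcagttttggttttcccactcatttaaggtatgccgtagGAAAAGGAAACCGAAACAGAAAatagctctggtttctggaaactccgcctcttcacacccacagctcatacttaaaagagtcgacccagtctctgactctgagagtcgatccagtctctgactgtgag
Ifit3 promoter, chr19:34583279-34583578, plus strand: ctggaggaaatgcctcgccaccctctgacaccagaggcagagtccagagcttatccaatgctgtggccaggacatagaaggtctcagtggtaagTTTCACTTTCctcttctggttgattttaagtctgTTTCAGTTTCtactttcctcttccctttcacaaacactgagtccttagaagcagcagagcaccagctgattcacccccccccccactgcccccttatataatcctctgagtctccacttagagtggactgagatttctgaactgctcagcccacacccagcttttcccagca
In Isg15 3 overlapping copies begin at bases 173, 179 and 185 of the window, and in Ifit3 2 copies lie on the opposite strand, from bases 95 and 129. On either strand the string was in 14 of 21 genes of the list with a promoter, in 3.9% of the tested genes, in 9.84% of those that fell at least 2-fold and in 3.9% of those that rose at least 2-fold. The STAT6 palindrome, printed above for genes that rose, was in 7 of the same 21. Isg15 itself, a ubiquitin-like modifier, was at 18.1, 16.1 and 10.4 FPKM in control and at 11.7, 6 and 5.87 FPKM in IL-4. Its groups overlapped, and its call was lost without control replicate 1, control replicate 2, IL-4 replicate 2 or IL-4 replicate 3 (adjusted p 0.00348 to 0.0913 by limma).

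Of 15 Fc gamma receptor and C-type lectin genes 5 rose (33.3%) and 8 fell (53.3%), with a median of -0.43. Fcgr1, the high-affinity IgG receptor, fell from 75.5, 67.4 and 53.9 FPKM to 19.5, 15.1 and 14.4 FPKM, while the inhibitory receptor Fcgr2b rose from 118, 110 and 103 FPKM to 235, 207 and 198 FPKM. Among lectins, Clec4n (Dectin-2), Clec12a and Clec4e (Mincle) fell by 2.86, 2.14 and 1.61, whereas Clec7a (Dectin-1) rose from 167, 86.5 and 87.3 FPKM to 570, 270 and 268 FPKM. Of 14 scavenger and efferocytosis genes 3 rose (21.4%) and 8 fell (57.1%), against 16.5% and 21.7% of all rows tested. Their median was -0.40, and 5 fell without IL-4 replicate 3. Gas6, which bridges dying cells to their receptors, fell from 199, 182 and 183 FPKM to 51, 34.1 and 36.1 FPKM, its receptor Mertk from 38.3, 31.5 and 25.9 FPKM to 11.7, 11.7 and 10.5 FPKM and Stab1 by 2.06. The bridging proteins Mfge8 and Pros1 rose by 0.63 and 0.59.

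Of 11 complement genes 1 rose (9.09%) and 7 fell (63.6%), with a median of -0.63. The 1 that rose, Itgax, encodes the integrin chain CD11c and went from 43.1, 25.7 and 27.6 FPKM to 345, 308 and 298 FPKM. C1qa, a chain of the first component, fell by 1.32, and the anaphylatoxin receptor C5ar1 from 126, 200 and 205 FPKM to 57.5, 77.1 and 73.8 FPKM. Of 29 cell cycle genes 1 rose (3.45%) and 12 fell (41.4%), with a median of -0.34. The cyclins Ccnd3 and Ccnb2 and the inhibitor Cdkn1b fell by 1.30, 1.11 and 0.98, while the replication clamp Pcna rose from 231, 294 and 304 FPKM to 425, 433 and 451 FPKM. With replicates 2 and 3 only, 20 cell cycle genes fell.

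A list was also made of genes measured by RT-qPCR or discussed in the study. Of its 16 tested members 2 rose and 11 fell, with a median of -1.39. The study chose many of them as genes that IL-4 lowers, so the count is not independent evidence of a direction. Beyond those given above, the growth factor Hbegf rose from 0.574, 0.373 and 0.36 FPKM to 2.08, 1.9 and 2.05 FPKM, and the lectin Clec4d fell from 798, 657 and 700 FPKM to 314, 222 and 224 FPKM. Fos was at 78.6, 97.4 and 99.2 FPKM in control and at 49.9, 72.6 and 76 FPKM in IL-4. Its groups did not overlap, but the difference of -0.48 ± 0.43 did not pass (adjusted p = 0.41, limma), in a fit whose spread is shared with the LPS groups. Edn1 did not pass either. Of 8 reference genes Sdha and Ywhaz rose by 0.46 and 0.32, Hprt fell by 0.60, and the other 5 did not pass, Actb at 1429, 1946 and 1907 FPKM in control and at 1359, 1861 and 1832 FPKM in IL-4 among them. Thus 25% of the reference genes rose and 12.5% fell, against 16.5% and 21.7% of all rows tested.

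The IL-4 difference can also be read in the 6 samples with LPS, which share no sample with the 6 above. IL-4+LPS minus LPS passed upward in 1614 rows (14.8%) and downward in 1708 (15.7%). Here too only the 10879 rows that reached 1 FPKM in a control or IL-4 sample were counted, so genes expressed only with LPS are absent. Of the 1794 rows that rose with IL-4 alone, 1001 rose again, which is 55.8% of these and 62% of the rows that rose with LPS present, and 69 fell. Of the 2358 rows that fell, 1007 fell again, 42.7% of these and 59% of the rows that fell with LPS present, and 60 rose. Among rows that changed at least 2-fold without LPS, 250 of 309 rose again and 271 of 392 fell again. The median of the 309 was 1.45 without LPS and 1.15 with it, and that of the 392 was -1.33 and -0.89. These rows were chosen by their size without LPS, which favours smaller medians with it, so the medians do not show a weaker IL-4 effect.

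All 22 cholesterol genes rose again with LPS present, as did 23 of the 24 alternative polarization markers that had risen, with Retnla at 3.48, 2.82 and 6.61 FPKM with LPS alone and at 9556, 11252 and 10633 FPKM with both. All 9 tested genes of MHC class II presentation rose, the 7 that had risen without LPS among them. Of the 14 genes of the Toll-like receptor pathway that fell without LPS 7 fell again, and Tirap, Ticam2 and Ticam1, which had not fallen, passed downward with LPS. Among the members 2 changed in opposite directions, Cd180, at -0.64 without LPS and 0.39 with it, and Ticam1, at 0.42 and -0.28. Cd180, Tirap and Ticam2 were chosen for naming after their values were seen. Of the 22 interferon-stimulated genes that had fallen 3 fell again, and no other of the 29 passed with LPS present, where the list's summed level was 6700, 6290 and 6480 FPKM without IL-4 and 6550, 6600 and 6240 FPKM with it.

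The test of the difference between the IL-4 effects with and without LPS was positive in 485 rows (4.46%) and negative in 490 (4.5%). Of the rows that rose with IL-4 alone 279 were negative and 26 positive, and of those that fell 336 were positive and 44 negative. The values that set the first call also enter this test, which favours that asymmetry.

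Irf8, a factor of myeloid and interferon genes, fell with IL-4 alone, from 86.4, 76.6 and 75.7 FPKM to 54.3, 43.1 and 44.9 FPKM, and rose with LPS present, from 33.4, 31.3 and 31.2 FPKM to 132, 205 and 200 FPKM. The difference between the effects was 3.16 ± 0.22 (adjusted p = 3.23e-05, limma). Ezr, which ties the membrane to actin, did the reverse, and went from 10.9, 11.2 and 11.4 FPKM to 23.2, 22.4 and 22.2 FPKM without LPS and from 104, 154 and 156 FPKM to 30.2, 33.6 and 34.4 FPKM with it. Socs1 rose in both settings, by 4.17 without LPS and by 0.96 with it, where LPS alone already gave 35.7, 68.5 and 71.2 FPKM.

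Ccl17, a chemokine known from alternative polarization, was at 0, 0.2 and 0.162 FPKM in control and at 1.35, 4.81 and 1.99 FPKM in IL-4, and at 0, 0.205 and 0.746 FPKM with LPS and 25.7, 86.7 and 79.7 FPKM with both. The call of Ccl17 without LPS was lost without control replicate 1 or IL-4 replicate 2 (adjusted p 0.0148 to 0.0645 by limma). Rhof and Adora2b also changed in opposite directions in the 2 settings, but without control replicate 2, control replicate 3, IL-4 replicate 2 or IL-4 replicate 3 Rhof lost its call in the setting without LPS, and Adora2b lost it in all 6 fits that left out 1 sample, with adjusted p of 0.0106 to 0.0844 and 0.0687 to 0.093 by limma.

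**Figure D4:**
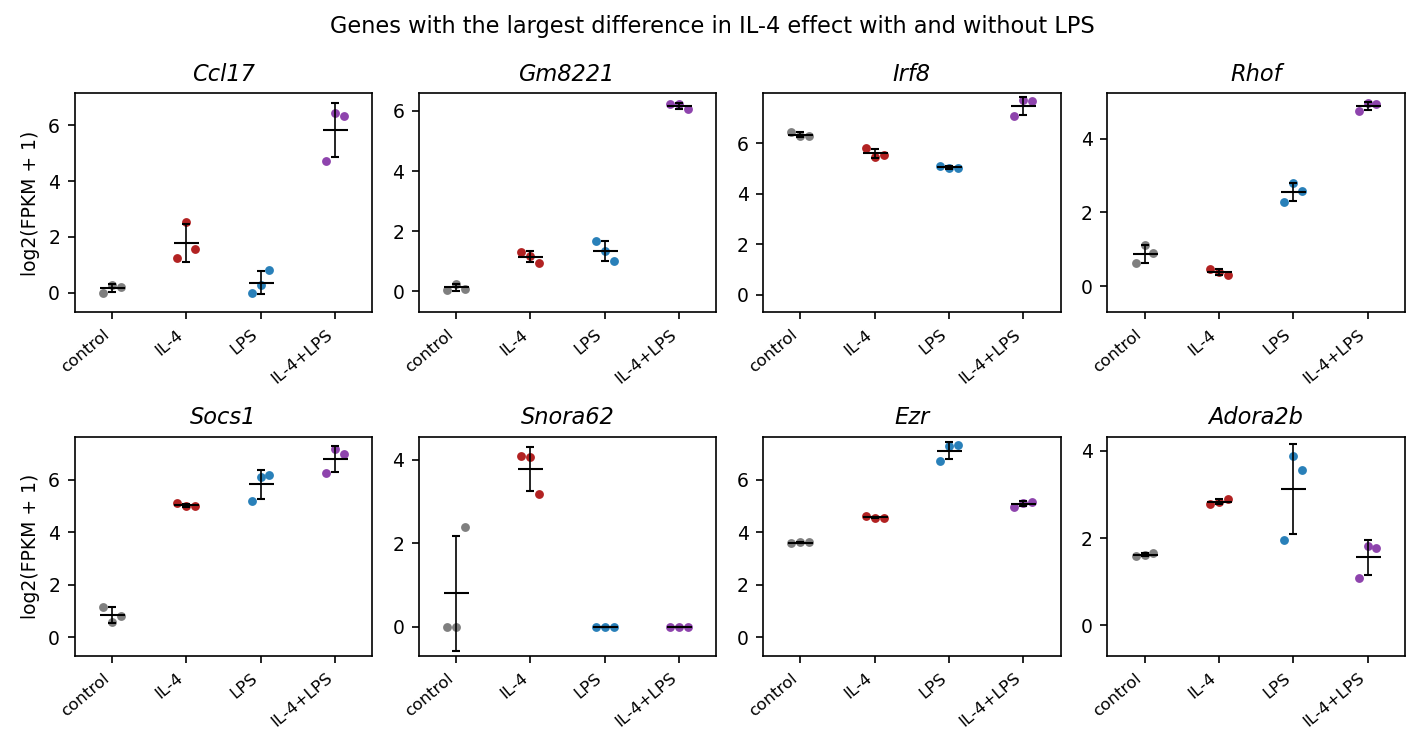
Levels as log2(FPKM + 1) in each of the 12 samples of the 8 genes with the largest differences between the IL-4 effects with and without LPS, 4 positive and 4 negative, with the mean (tick) and SD (bar) of each group. Irf8 is lower with IL-4 alone and higher with IL-4 when LPS is present, and Ezr does the reverse.

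**Figure D5:**
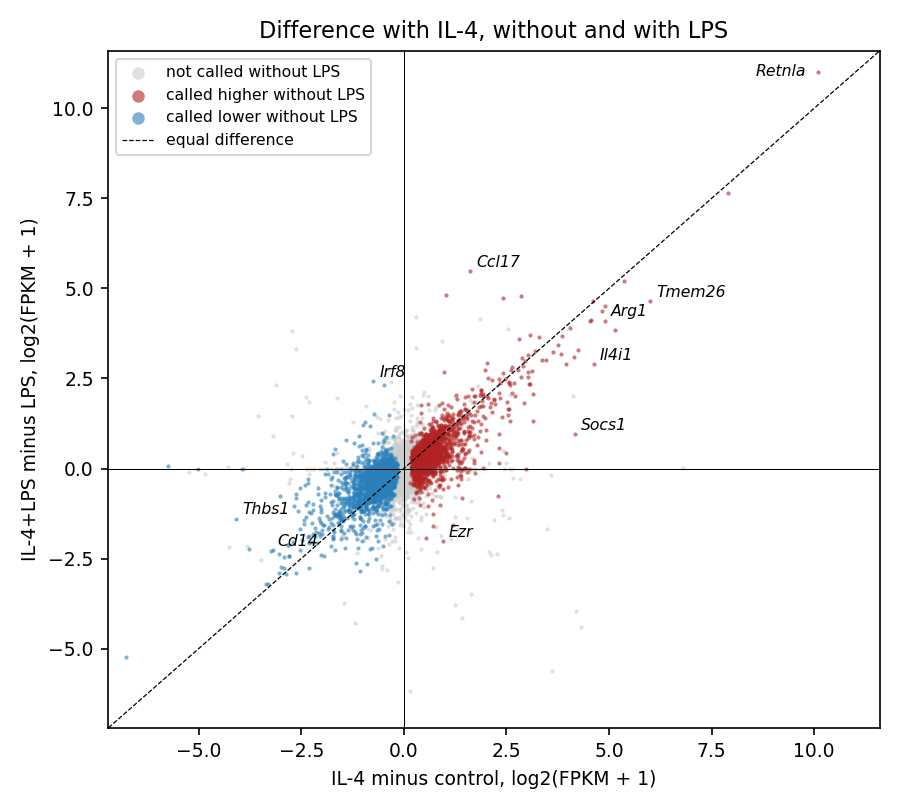
Difference in log2(FPKM + 1) of each of the 10879 rows, IL-4 minus control on the x axis and IL-4+LPS minus LPS on the y axis, with the line of equal differences. Retnla lies at 10.09 and 11.01, Ccl17 and Irf8 lie far above the line, and Socs1 and Ezr lie far below it.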

How the data were processed

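Poly-A RNA of 12 BMDM samples was measured, and 6 of them, 3 control and 3 IL-4, form the comparison. The deposited tables hold FPKM values, 1 table per sample. Per the submitters' processing notes the tools named are TopHat2 2.0.7 and Cufflinks 2.0.2 and the build is mm10; the annotation was not given in the sources used here, and no scaling between samples beyond FPKM is stated. FPKM values depend on the other genes of a sample, so a large rise such as that of Retnla lowers the share of other genes. The tables hold no counts, so the absolute depth is unknown. From the steps of low values, relative depth was 1, 1.339 and 3.307 in control and 0.993, 1.782 and 1.745 in IL-4 (control replicate 1 set to 1), so low values of the shallower samples are less precise.

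Rows were joined on gene ID, locus and start site and kept at 1 FPKM or more in any of the 6 samples. The 4 group means of log2(FPKM + 1) in all 12 samples were modelled in limma 3.58.1 (R 4.3.3) with an intensity trend, checked on simulated data, and p-values were adjusted by Benjamini-Hochberg, with a threshold of 0.05. A log2 difference on this scale understates the change of low genes. A figure legend of the study gives 3 animals from 2 experiments. The labels tie no replicate number to an animal or an experiment, so the experiment could not enter the fit. That the samples of a group are separate animals rests on the legend, and otherwise p-values would measure in part technical spread. Named genes are the 12 largest non-overlapping changes per direction with a mean of at least 5 FPKM, the study's own genes, up to 4 called members per direction of each list with members that define it, cell type markers, and the 4 largest differences per sign in the test with LPS. Some genes that this rule names are not reported here. Members named only as not passing were added after their values were seen. Members, lists and motifs were chosen with earlier results of these data known. Shared sequence is the percent of 50-base words of a gene's GENCODE vM21 transcripts found in other genes. Alternatives were a pseudocount of 0.1, other filters and scalings, no trend, only the 6 samples, a replicate block, replicates 2 and 3 only, a Tukey test per gene, and fits that each left out 1 sample. Python 3.11.15 with matplotlib 3.10.9 drew the figures.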

Additional observations from a re-analysis of the deposited data

Results flagged for a closer look

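The IL-4 effect differed by a test of the difference itself between samples with and without LPS in 485 rows upward and 490 rows downward (limma, adjusted p under 0.05). Among the named genes the difference was positive for Ccl17 (3.86 ± 0.64, adjusted p = 0.004), Gm8221 (3.79 ± 0.22, adjusted p = 2.74e-05), Irf8 (3.16 ± 0.22, adjusted p = 3.23e-05) and Rhof (2.81 ± 0.20, adjusted p = 4.15e-05), all by limma. Gm8221 shares 45.1% of its 50-base words with apolipoprotein L relatives, so the gene behind its value is uncertain. The difference was negative for Socs1 (-3.21 ± 0.41, adjusted p = 0.00106), Snora62 (-2.98 ± 0.75, adjusted p = 0.0339), Ezr (-2.97 ± 0.19, adjusted p = 2.81e-05) and Adora2b (-2.79 ± 0.57, adjusted p = 0.0126). Snora62 was listed at 0 in all 6 samples with LPS.

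Among the largest changes without LPS, the rises of Tmem26 and Il4i1 were smaller with LPS present, with differences between the effects of -1.36 ± 0.17 (adjusted p = 0.00106) and -1.74 ± 0.40 (adjusted p = 0.0227, limma). The falls of Thbs1, Gpr162, Cd14 and Marcksl1 were smaller with LPS present, with differences of 2.71 ± 0.42 (adjusted p = 0.00278), 1.55 ± 0.31 (adjusted p = 0.0111), 0.95 ± 0.24 (adjusted p = 0.0348) and 2.25 ± 0.29 (adjusted p = 0.00105). These genes were chosen by their size without LPS, which favours smaller changes with it. With groups of 3, no sample was tested as far from its group.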

How the results depend on the processing

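Counts of rows that rose and fell stayed within 1.5 times the reported ones in every alternative, and no call was made in the opposite direction. With 1 sample left out, 1313 to 1803 rows rose, 1781 to 2117 fell, 290 to 343 rose at least 2-fold and 363 to 414 fell at least 2-fold. A pseudocount of 0.1 gave 643 rows down at least 2-fold, since it lowers low values further. Quantile normalization made 50.3% of the calls rises, against 43.2%. The test of the IL-4 effect with LPS against that without moved most, with 305 to 446 positive and 317 to 480 negative rows when 1 sample was left out (lowest without IL-4 replicate 3, 305 and 317), and 1397 and 1323 with replicates 2 and 3 only. The cause was not tested.

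Replicate numbers were not taken as pairs. The labels tie no number to an animal or experiment, and deviations of same-numbered control and IL-4 samples correlated at 0.1736, 0.1347 and 0.0125. Pairs with different numbers ran from -0.1597 to 0.0568, and control 3 correlated better with IL-4 replicate 2 (0.0568) than with its own number. Replicate 1 was however the lowest of its group in all 7 neutrophil markers in each of the 4 groups, so whether same-numbered samples share a source was not settled. With the number as a block, 2412 rows rose and 3186 fell, and the test with LPS gave 1113 positive and 1067 negative rows.

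Of 176 named genes with a call, 18 lost it in at least 1 of the 6 fits that left out 1 sample. Differences near 0 changed sign in genes without a call: Sfpi1 (-0.04 with quantile normalization, -0.03 to 0.16 with 1 sample left out), Tlr4 (-0.01 with replicates 2 and 3 only, -0.07 to 0.27 with 1 sample left out), Nr1h3 (0.01 with median scaling, 0.08 with replicates 2 and 3 only, -0.18 to 0.23 with 1 sample left out) and Actb (-0.21 to 0.08 with 1 sample left out). Absolute depth is unknown, and genes under 1 FPKM in all 6 samples were not tested.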
